A study of Mus musculus with 80 samples.

Results

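The proteasome subunits and their dedicated partners were followed across 80 Illumina bead arrays of male B6C3F1 mouse liver, a hybrid laboratory strain. An entry was taken where its symbol was Psm followed by one of the letters a to g and a digit, and where the detection p-value was under 0.05 on at least 4 arrays. Of 18138 entries in the table, 43 had such a symbol and 40 were detected often enough to be members. Psmb8, Psmb9 and Psmb10, the immunoproteasome subunits, were set apart from the other 37.

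Ethinyl estradiol (EE2), a synthetic estrogen, was eaten in feed for 7 d at doses of 1 ppm, 2.5 ppm, 5 ppm and 10 ppm, the last of them also for 28 d. Prednisone (PRED) is a glucocorticoid prodrug activated mainly in liver, and was fed for 7 d at 1.25 ppm, 2.5 ppm, 5 ppm and 25 ppm, the last of them also for 28 d. Androstenedione (A4), from which testosterone and estrone are made, was gavaged in carboxymethyl cellulose for 7 d at daily doses of 2 mg/kg, 10 mg/kg, 20 mg/kg and 50 mg/kg, the last of them also for 28 d. Each of these 15 groups had 4 arrays. Feed controls had 6 arrays at 7 d and 6 at 28 d, and gavage controls had 4 at each time. All animals were males of 1 strain, and the labels do not say that arrays came from separate animals. The p-values therefore reflect no more than array-to-array differences within groups, part of which may be technical.

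The proteasome is the protease that breaks down proteins tagged with ubiquitin. Its barrel-shaped core particle has outer rings of alpha subunits, which gate the entry, and inner rings of beta subunits, which carry the cutting sites. A cap, the regulatory particle, holds ATPases that unfold the substrate and non-ATPase subunits that recognise and remove ubiquitin. In cells exposed to interferon gamma, Psmb8, Psmb9 and Psmb10 replace the constitutive catalytic subunits Psmb5, Psmb6 and Psmb7, and the assembly is then called the immunoproteasome. It favours peptides that fit MHC class I molecules, and the activator made of Psme1 and Psme2 is induced with it.

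The 40 members were 4 alpha subunits, 7 constitutive beta subunits, the 3 immunoproteasome subunits, 6 ATPases of the cap, 10 non-ATPase cap subunits, 3 cap assembly chaperones, 4 activators, the inhibitor-like regulator Psmf1 and 2 core assembly chaperones. The alpha subunits Psma1, Psma3 and Psma6 had the right symbols and were detected on 0 arrays, at mean intensities of 95.2, 96.7 and 95.9, below the array medians of 105.7 to 106.4. Detection on all 80 arrays was found for 33 members. Among the rest, the ATPase Psmc6 was detected on 4 arrays, just enough to enter, and the cap chaperone Psmd5 on 6. The constitutive subunit Psmb2 and the cap subunit Psmd11 were each detected on 30, Psmd6 on 46, Psmd2 on 66 and the nuclear activator Psme4 on 78. Psmb2 averaged an intensity of 1882 although most arrays gave it no detection call, so its detection p-value did not follow its signal. The core chaperone Psmg1 stood in the table under the older symbol Dscr2 and the cap subunit Sem1 under Shfm1, and neither met the symbol rule. Psmc3ip shares the letters but is a meiotic recombination factor and was left out.

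The promoters of 3 members are shown because those genes had the strongest calls of their kind: the cap ATPase Psmc4 and the cap subunit Psmd8 with EE2 at 7 d, and the activator Psme1 in both directions. The sequences are RefSeq's for build GRCm38.p6, 250 bases before and 50 after the annotated start, read 5′ to 3′ on the gene's strand. Psmc4 lies on chromosome 7 from 28041702 to 28050092, Psmd8 on chromosome 7 from 29174187 to 29180673, and Psme1 on chromosome 14 from 55578494 to 55581527. The printed windows are chr7:28050043-28050342 on the minus strand, chr7:29180624-29180923 on the minus strand and chr14:55578244-55578543 on the plus strand. Capitals mark the ETS core ACTTCCG in the first 2 and a match, on the other strand, to the interferon response element (GAAA, any 2 bases, GAAA) in the third.
Psmc4: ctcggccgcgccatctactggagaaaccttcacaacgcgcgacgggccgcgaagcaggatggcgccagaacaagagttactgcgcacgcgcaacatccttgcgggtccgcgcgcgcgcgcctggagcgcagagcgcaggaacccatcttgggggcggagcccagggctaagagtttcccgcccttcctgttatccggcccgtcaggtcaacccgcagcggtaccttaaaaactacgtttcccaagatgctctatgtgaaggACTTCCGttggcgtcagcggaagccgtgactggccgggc
Psmd8: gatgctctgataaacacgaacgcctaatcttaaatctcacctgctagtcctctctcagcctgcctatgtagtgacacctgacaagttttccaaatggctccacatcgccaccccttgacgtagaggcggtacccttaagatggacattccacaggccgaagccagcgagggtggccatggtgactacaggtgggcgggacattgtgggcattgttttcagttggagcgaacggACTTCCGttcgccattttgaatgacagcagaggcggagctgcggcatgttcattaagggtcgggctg
Psme1: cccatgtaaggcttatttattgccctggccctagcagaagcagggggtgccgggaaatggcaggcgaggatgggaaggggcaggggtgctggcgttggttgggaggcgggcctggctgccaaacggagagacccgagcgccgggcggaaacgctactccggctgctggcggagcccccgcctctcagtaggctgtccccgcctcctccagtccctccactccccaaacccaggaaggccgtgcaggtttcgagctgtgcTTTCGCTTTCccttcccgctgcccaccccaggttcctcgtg

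The capitals lie at positions 12 to 18 of the Psmc4 transcript, from 17 to 11 bases before the Psmd8 start, and at positions 10 to 19 of the Psme1 transcript. Searched on both strands, ACTTCCG was in 14 of the 36 promoters listed for 34 members (38.889%), against 6.42% of all 32851 promoters and 11.146% of the 9268 promoters of tested entries. That motif was chosen after the printed promoters had been read. The interferon element was in 4 member promoters (11.111%), against 3.443% of all promoters. These were the promoters of Psmd4, Psmd9, Psmb3 and Psme1, with no immunoproteasome subunit among them. The antioxidant element core TGACNNNGC was in 6 (16.667%, against 12.392%) and the CCAAT box in 10 (27.778%, against 37.408%). The estrogen element (GGTCA, any 3 bases, TGACC) and the glucocorticoid element (GNACA, any 3 bases, TGTNC) were in 0 member promoters, against 0.07% and 0.475% of all. A match is a run of letters and not a known binding site.

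Intensities ran from 85.9 to 19760.9 with no background subtracted, so a level near the array median was background. Between 7743 and 9328 entries were detected per array. The hepatocyte markers Apoa1, Ttr, Cps1, Ass1, Cyp2e1 and Hnf4a were detected on all 80 arrays, while Alb, Tat and Fgb were detected on 47, 23 and 30 and reached at most 419.8, 138.7 and 182. The number of arrays limits the precision of every value below. Changes are differences of log2(intensity + 16), which understate the change of weak genes, and adjusted p-values are limma's, adjusted by Benjamini-Hochberg over all 11352 tested entries, with a threshold of 0.05.

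Before any comparison, 1 array stood apart. Replicate 4 of the 7 d gavage control had an intensity of 521 for Psmb8, 2296 for Psmb9 and 4074 for Psmb10, against 135 to 151.8, 255 to 275 and 592 to 673 on the other 3 arrays of its group. Psme1 was at 4024 there and at 1384 to 1839 on the others. Genes of the interferon response moved with it. All 14 tested interferon-stimulated genes were higher on that array than on the other 3, as were 8 of 8 class I antigen processing genes, 7 of 7 MHC class II genes and 9 of 10 macrophage markers, against 23.7% of all tested entries. The chemokine gene Cxcl9 reached 7837.5 (278 to 348 on the others) and the interferon-inducible GTPase gene Igtp 13664 (444 to 801). The median log2 excess of the array was 2.65 for the immunoproteasome subunits, 0.54 for the alpha subunits, 0.49 for the constitutive beta subunits and -0.01 for all tested entries. This array is a control in the A4 comparisons at 7 d, and through the shared estimate of spread it enters every test. Calls that change when it is left out are given beside the results, the choice of array having been made after its values were seen.

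**Figure D1:**
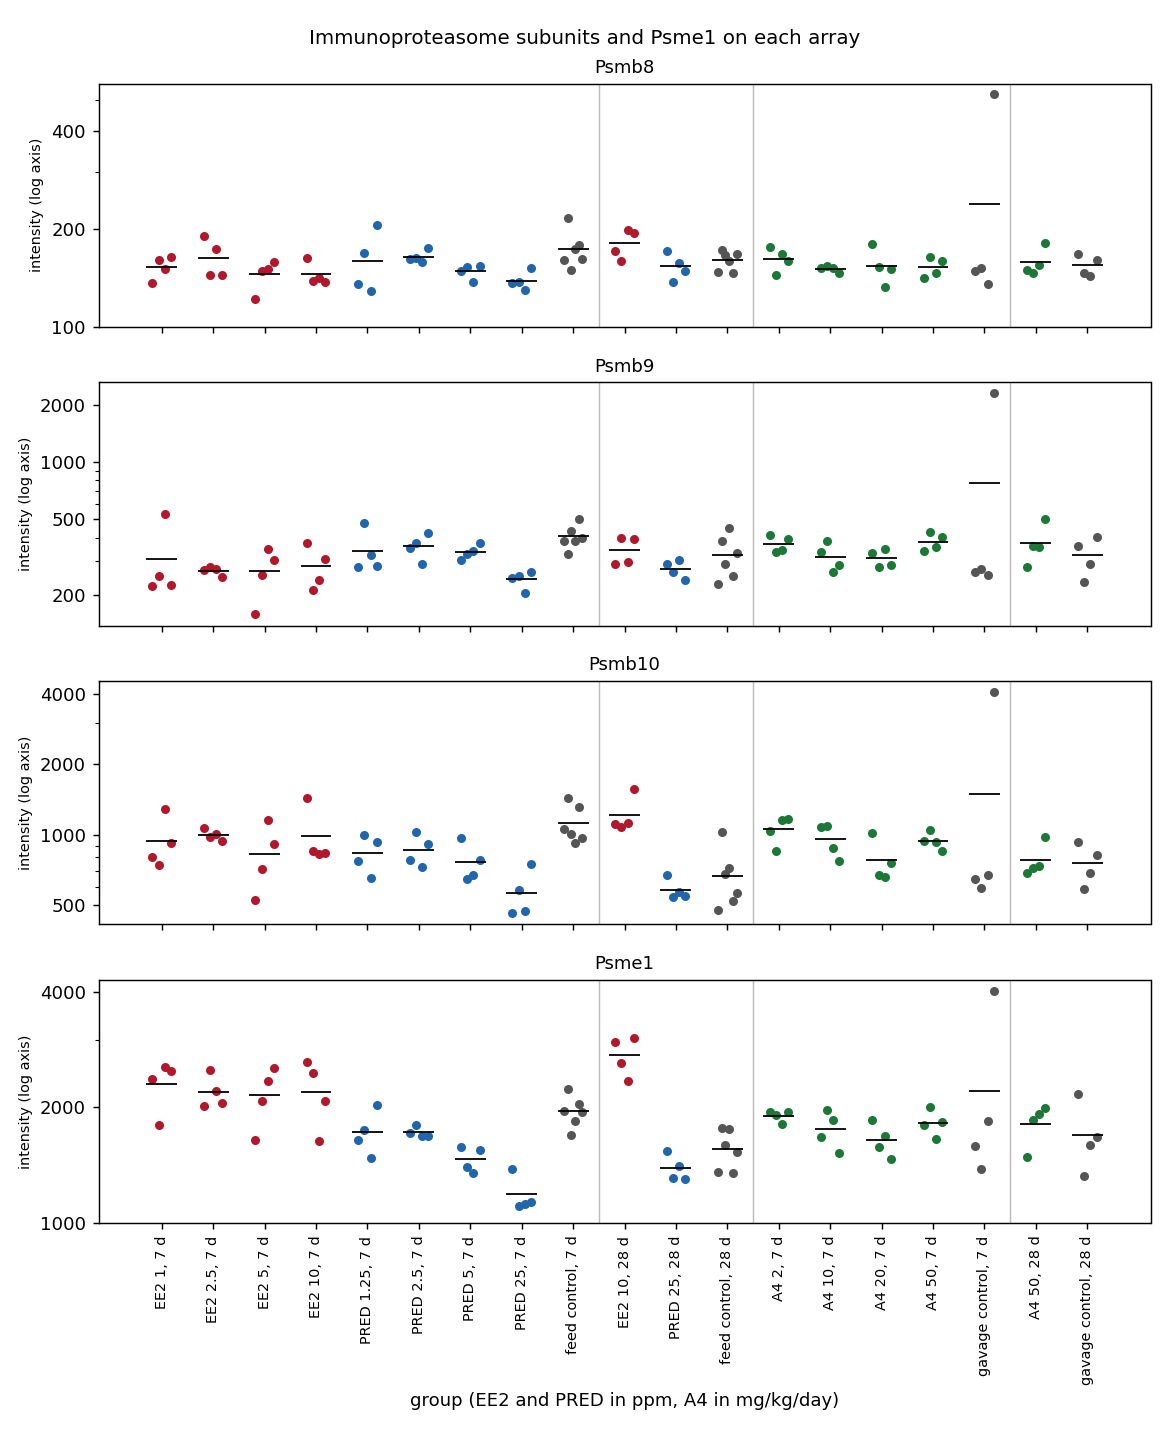
Intensity (log axis) of Psmb8, Psmb9, Psmb10 and Psme1 on every array, 1 point per array, in the 19 groups, with a line at each group's mean. Replicate 4 of the 7 d gavage control lies far above the other arrays for Psmb9 and Psmb10, at 2296 and 4074, and the EE2 28 d arrays are high for Psme1, at 2340 to 3030.

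The members that rose with EE2 10 ppm at 7 d were cap subunits and nuclear activators. Of the cap, 4 of 6 ATPases and 4 of 10 non-ATPase cap subunits rose, while 0 of 4 alpha subunits, 0 of 7 constitutive beta subunits and 0 of 3 immunoproteasome subunits passed the threshold. The largest rises were in Psmd8, a lid subunit of the cap, by 1.93-fold, and Psmc4, an unfolding ATPase, by 1.81-fold. Both core assembly chaperones, Psmf1 and the activator Psme2 fell. Whether cap and core subunits differed in their response was not tested.

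In all, 10 members rose and 4 fell at 10 ppm and 7 d. Of all tested entries 33.3% were called there, 18.1% as risen and 15.2% as fallen. Among members 25% rose and 10% fell, and the 35% called were near that background. The members' median change was 0.16, and 28 of 40 lay above 0, while the median of all tested entries was 0.00. A fit of these 2 groups alone called 9 members, 7 risen and 2 fallen, and chip as a block called 12, 9 risen and 3 fallen, losing Psmc3 (adjusted p = 0.0623) and Psmf1 (0.0551). The shares above are not of these fits.

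Psmd8 had intensities of 2149, 3377, 2494 and 2409 with EE2 10 ppm, against 1133 to 1499 (median 1327) in the 6 feed controls. The 4 treated arrays all lay above every control, and replicate 2 was the highest. The log2 change was 0.95 (SE 0.13, adjusted p = 1.17e-08).

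Psmc4 had 3272, 4126, 3464 and 3431 with EE2 10 ppm, against 1745 to 2110 (median 1992) in the feed controls. The groups did not overlap, and replicate 2 was again the highest. The change was 0.86 (SE 0.12, adjusted p = 7.96e-08).

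The other risen ATPases were Psmc2 (0.58, adjusted p = 1.14e-04), Psmc1 (0.35, 0.0145) and Psmc3 (0.33, 0.0423), each part of the ring that unfolds substrates. Psmc5 had a change of 0.20 (adjusted p = 0.245), and Psmc6 was near background. Among cap subunits the lid members Psmd13 and Psmd12 rose by 0.57 and 0.56, with no overlap between groups, and Psmd4, a ubiquitin receptor, rose by 0.31 (adjusted p = 0.0398). Psmd1, Psmd2, Psmd6, Psmd7, Psmd11 and Psmd14, the last a deubiquitinase, had changes from -0.07 to 0.32 and did not pass. The activators Psme4 and Psme3, both found mainly in the nucleus, rose by 0.51 and 0.47.

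Psmg3, a chaperone of alpha ring assembly, had 473, 543, 299.7 and 257 with EE2 10 ppm, against 506 to 719 (median 562) in the feed controls. Replicate 2 lay inside the control range and the other 3 below it. The change was -0.62 (SE 0.16, adjusted p = 0.00228).

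Psmf1, which binds the core and inhibits it in vitro, had 494, 658, 419 and 467 with EE2 10 ppm, against 568.4 to 619 (median 609) in the controls. The treated arrays thus spanned the controls, with 3 below and 1 above them. The change was -0.25 (adjusted p = 0.0136). Psmg2, the other core chaperone among the members, fell by 0.29 on the log2 scale (adjusted p = 0.0241), and Psme2 fell by 0.56 (adjusted p = 0.00201) with no overlap between groups.

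Of the constitutive catalytic subunits, Psmb5 had 382, 879, 412 and 340 with EE2 10 ppm, against 389 to 611 (median 523) in the controls. Psmb6 had 2322, 4782, 2459.8 and 1834, against 1359.5 to 2773 (median 2593), and Psmb7 had 1978, 2937, 1754 and 1403, against 1582 to 1796 (median 1655). For all 3 genes replicate 2 was the highest array and the groups overlapped. Their changes were -0.12, 0.17 and 0.22, with adjusted p-values of 0.685, 0.578 and 0.161.

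The immunoproteasome genes had negative changes that were not called with all arrays. Psmb9 had 375, 211, 239 and 308 with EE2 10 ppm, against 330 to 501 (median 393) in the controls, with replicate 1 inside the control range and the other 3 below it. Its change was -0.52 (adjusted p = 0.149), and Psmb8 and Psmb10 had changes of -0.23 and -0.20. Without the gavage control array, which is in neither group, the same changes had smaller standard errors, and Psmb9 (adjusted p = 0.0192) and Psmb8 (0.0282) passed as fallen, while the alpha subunit Psma5 passed as risen (0.37, adjusted p = 0.0437). Psmb8 had 163, 138.4, 141 and 137 with EE2 10 ppm, against 150 to 216 (median 168) in the controls, levels close to background, where folds are compressed. In 1 chip that held both groups, Psmb8, Psmb9 and Psmb10 differed by -0.10, -0.99 and -0.25. In the other they differed by 0.02, -0.04 and 0.44, so the lower level was not seen in both.

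**Figure D2:**
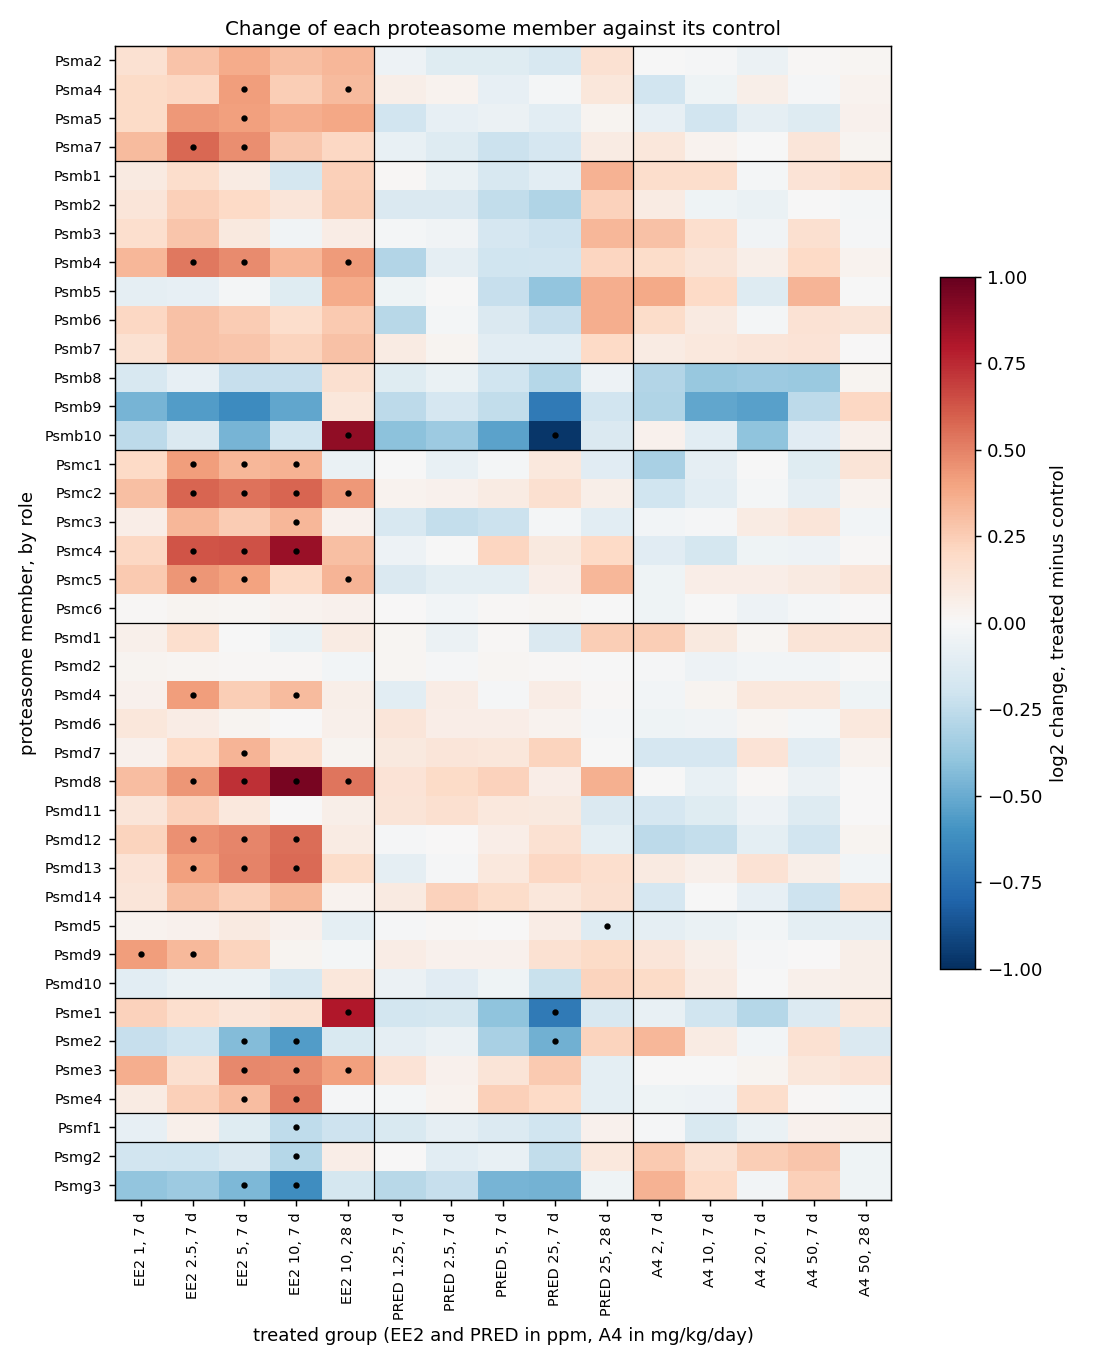
Log2 change of the 40 members (rows, by role) in 15 comparisons of a treated group with its own control (columns), coloured from lower to higher, with a black dot where the adjusted p was under 0.05. The dots gather in the ATPase and cap subunit rows of the EE2 columns, with 10 risen and 4 fallen at 10 ppm and 7 d, and no A4 column has one.

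The rise of cap subunits was present from 2.5 ppm of EE2. At that dose 11 members rose and 0 fell, against 14.6% of all tested entries called, 7.58% as risen. At 5 ppm 14 rose and 2 fell, against 24.4% called, 12.8% as risen. The 5 ppm count was 4 (3 risen, 1 fallen) when the fit held these 2 groups alone, and 10, all risen, with chip or with the number in the sample name as a block. The risen members were 27.5% and 35% of the 40, and 32 and 30 members lay above 0, with medians of 0.23 at both doses. At 1 ppm 1 member rose, the cap chaperone Psmd9 (0.42, adjusted p = 8.84e-04), against 13.3% of all entries called. These comparisons share the 6 feed controls of 7 d, so the doses are set side by side and are not independent of each other.

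At 2.5 ppm the ATPases Psmc4 (0.63), Psmc2 (0.58), Psmc5 (0.44) and Psmc1 (0.42) rose, with the cap subunits Psmd12 (0.45), Psmd8 (0.44), Psmd4 (0.42) and Psmd13 (0.41), the chaperone Psmd9 (0.33), the alpha subunit Psma7 (0.57) and the beta subunit Psmb4 (0.53). At 5 ppm the same 4 ATPases rose, by 0.64, 0.54, 0.40 and 0.33. Psmd8 (0.73), Psmd12 and Psmd13 (0.49 each) and Psmd7 (0.34) rose among cap subunits, the alpha subunits Psma7 (0.46), Psma4 (0.42) and Psma5 (0.41) and the beta subunit Psmb4 (0.47) in the core, and Psme3 (0.48) and Psme4 (0.31) among activators. Psmg3 (-0.45) and Psme2 (-0.43) fell at 5 ppm.

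Calls of immunoproteasome subunits at these doses depended on the gavage control array. At 5 ppm without that array 15 members rose and 5 fell, the 3 added falls being Psmb9 (-0.63, adjusted p = 0.00617), Psmb8 (-0.23, 0.0344) and Psmb10 (-0.47, 0.0471). With all arrays their adjusted p-values were 0.0933, 0.266 and 0.191. At 2.5 ppm Psmb9 fell without it (-0.56, adjusted p = 0.0231, and 0.183 with all arrays). Psma5 at 2.5 ppm (0.43, adjusted p = 0.0325) and Psma2 at 5 ppm (0.37, 0.0480) were added among risen members.

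Across the dose series, Psmc4 had 1745 to 2110 (median 1992) in feed controls, then 3366, 2098, 2208 and 1665 at 1 ppm. It had 2691, 2817, 3518 and 3157 at 2.5 ppm and 4014, 2431, 2968 and 2972 at 5 ppm. From 2.5 ppm on, no array reached down to the controls, while at 1 ppm replicate 1 was far above them, replicate 3 just above and the other 2 within or below. Psmd8 had 2073, 1399, 1822 and 1379.6 at 1 ppm and 1407, 1871, 2235 and 1787 at 2.5 ppm. The 5 ppm arrays had 2930, 1621, 1858 and 2719.9, so the treated and control groups were apart from 5 ppm on.

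A linear trend over the control and the 4 doses was found for 15 members, 12 rising and 3 falling, against 33.9% of all tested entries, 18.7% rising. Per dose step, Psmd8 gained 0.23 (adjusted p = 1.56e-09), Psmc4 gained 0.21 (6.94e-09) and Psmd13 gained 0.15 (8.47e-07). Psme2 and Psmg3 each changed by -0.13 and Psmf1 by -0.05 per step. The trend passed for 8 members, 6 rising and 2 falling, when fitted on these groups alone. Without the gavage control array it passed for 18, with Psmb9 (-0.12 per step, adjusted p = 0.0175) and Psmb8 (-0.05, 0.0255) added as falling. Psmb4 was highest in the middle of the series, with group changes of 0.33, 0.53, 0.47 and 0.33 from 1 to 10 ppm, and had no called trend.

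**Figure D3:**
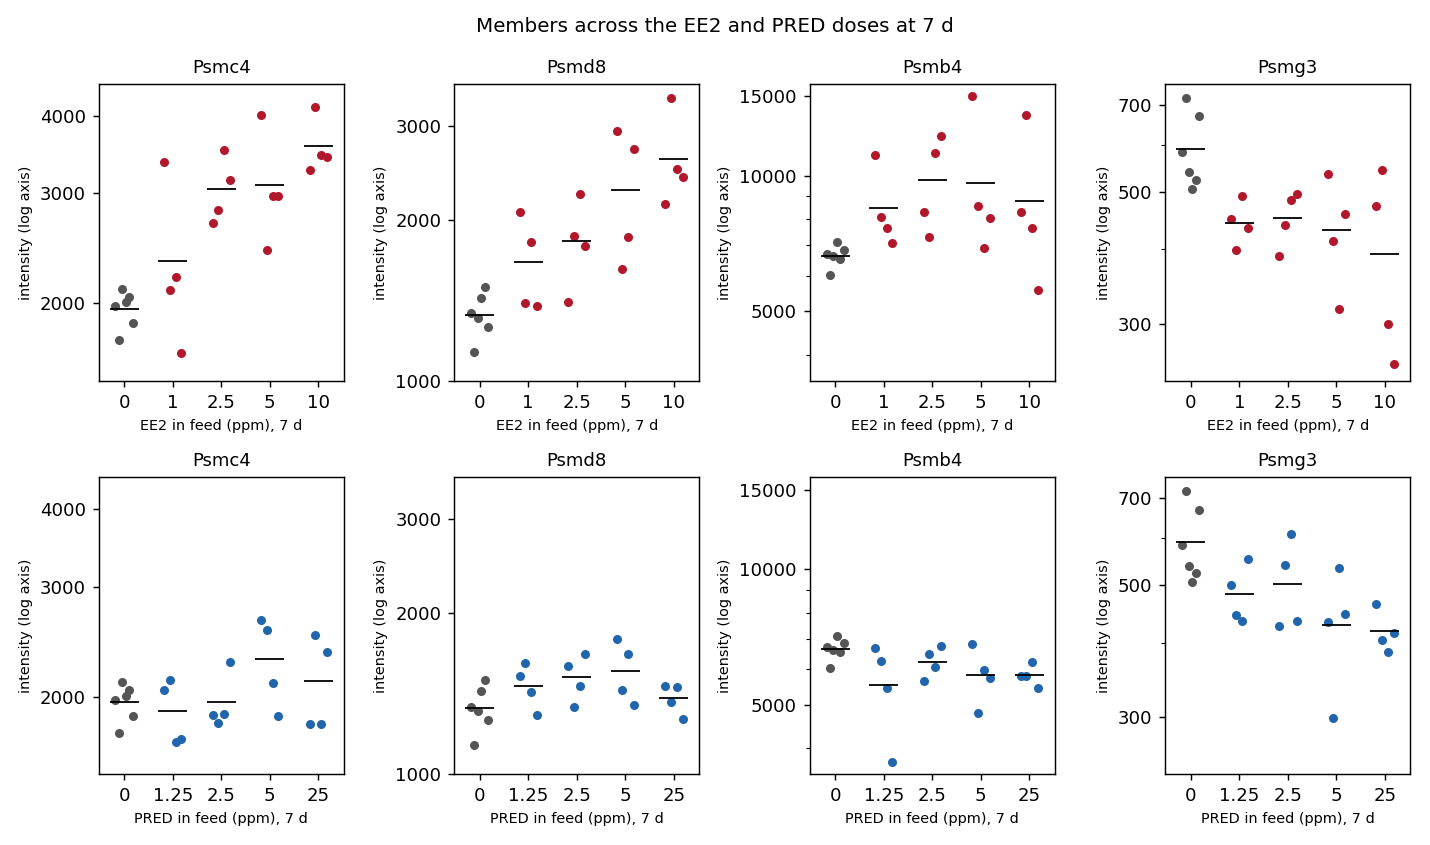
Intensity (log axis) of Psmc4, Psmd8, Psmb4 and Psmg3 on each array in feed controls and at 4 feed doses for 7 d, EE2 in the top row and PRED in the bottom row, with a short line at each group's mean and 0 ppm for the controls. With EE2, Psmc4 and Psmd8 lie above the controls at 10 ppm, from 3272 and 2149 upward, while both genes overlap the controls at each PRED dose.

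Some of these calls rested on single arrays. The mean log2 intensity over members was highest on EE2 5 ppm replicate 1 (10.66) and EE2 10 ppm replicate 2 (10.64), against 10.09 to 10.19 in the feed controls of 7 d. Without EE2 5 ppm replicate 1 the members called at 5 ppm were 6 in place of 16, and without feed control replicate 2 they were 10. Without EE2 2.5 ppm replicate 3 they were 5 in place of 11 at 2.5 ppm, and without EE2 10 ppm replicate 3 they were 8 in place of 14 at 10 ppm. At 1 ppm they were 2 without replicate 3 or without replicate 4. Psmc4 and Psmd8 at 10 ppm stayed past the threshold whichever array of the compared groups was left out.

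The arrays sat on 10 chips of 8 arrays with 6 to 8 groups each. Each of these EE2 doses shared a pair of chips with a feed control, mostly with 1 array of each group. Within those chips, EE2 2.5 ppm had median differences over the 40 members of 0.01 and 0.11. For EE2 5 ppm they were 0.51 and 0.02. For EE2 10 ppm they were 0.47 and 0.03, so the median was near 0 in 1 chip at each of these doses. For EE2 1 ppm they were -0.11 and 0.38. All 11 members called at 2.5 ppm and all 16 called at 5 ppm kept their direction in both chips. At 10 ppm 12 of 14 did in 1 chip and 11 in the other. The arrays of these chips were part of the calls. With chip as a block, Psmd8 and Psmc4 had changes of 0.90 and 0.88 at 10 ppm (adjusted p = 1.15e-06 and 1.38e-06), and 3 of 6 ATPases were called there in place of 4.

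Genes that the antioxidant factor NRF2 controls had a higher sum in these groups, carried by few of them. The summed intensity of 12 NRF2 targets was 8103 to 14623 with EE2 10 ppm and 7982 to 16931 with EE2 5 ppm, against 4393 to 5647 in the 7 d feed controls. Its highest value within each of those EE2 groups was on the array with the highest member mean. Of the 12, 4 rose at 10 ppm: the efflux transporter gene Abcc3 (3.10), the pentose phosphate enzyme gene Pgd (1.63), the sulfiredoxin gene Srxn1 (1.20) and the quinone reductase gene Nqo1 (0.20). The other 8 did not pass, among them the glutathione transferase gene Gstm1 (-0.36), and the list's median change was 0.15, where 18.1% of all tested entries rose. The summed intensity of 11 macrophage markers was 5549 to 24523 with EE2 10 ppm, against 4566 to 6602 in the controls, and was lowest on replicate 2; of 10 tested, 9 rose, and Cd5l was undetected in every group named here. In bulk liver, fewer cells of a type and less RNA per cell cannot be told apart. The part of these markers in the proteasome results was not tested.

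Few other genes of the ubiquitin pathway passed the test. Of 14 proteasome partners without a Psm symbol, 3 rose and 0 fell at 10 ppm and 7 d: Ube3c, a ubiquitin ligase of the proteasome (0.40), Nfe2l2, which encodes NRF2 (0.39), and the shuttle factor Ubqln1 (0.33). Their median change was -0.02. Of 10 ubiquitin and p97 genes 1 rose, the unfolding ATPase gene Vcp (0.49), and the median was 0.11. Of all tested entries 18.1% rose. Changes of similar size that did not pass were those of the chaperone gene Hspa8 (0.71, adjusted p = 0.0887), the proteasome scaffold gene Ecpas (0.41, 0.0813) and the autophagy receptor gene Sqstm1 (0.39, 0.0540). Nfe2l1, which encodes a transcription factor of proteasome genes, did not pass at 7 d and fell at 28 d (-0.63).

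Among promoters, the ETS core printed above stood in those of 8 of the 9 members with a promoter entry that rose at 10 ppm, and in those of 5 of the 25 that did not. Among other tested genes it was in 13.1% of 1327 that rose and 13.2% of 5844 that did not. At 5 ppm it was in 10 of 13 risen members and 3 of 21 others, and at 2.5 ppm in 7 of 11 and 6 of 23. The motif was picked from 2 of the risen members, so these counts describe the list and test nothing.

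After 28 d of EE2 at 10 ppm, Psmb10, 1 of the 3 immunoproteasome subunits, and the activator Psme1 rose. Psmb10 was 1.85-fold and Psme1 1.75-fold higher than in the 28 d feed controls, and of the 8 ATPases and cap subunits that had risen at 7 d, Psmc2 and Psmd8 rose at 28 d. In all 8 members rose and 0 fell, against 28.6% of all tested entries called, 14.8% as risen. The members' 20% risen was not far from that background, as at 7 d. With 0 fallen, the members called in either direction, 20%, were below the 28.6% of all entries. Beside Psmb10 and Psme1, Psmd8, the ATPases Psmc2 (0.43) and Psmc5 (0.34), the alpha subunit Psma4, the beta subunit Psmb4 and the activator Psme3 (0.41) rose.

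Psmb10, on chromosome 8 from 105935728 to 105938392, had 1114, 1076, 1124 and 1572 with EE2 at 28 d, against 477 to 1028 (median 624) in the 28 d feed controls. The groups did not overlap, but the highest control, replicate 2, lay just below the lowest treated array. The change was 0.89 (SE 0.26, adjusted p = 0.00564). In the 2 chips that held both groups, Psmb10 differed by 0.11 and by 1.505. The higher level was thus small in 1 of them. At 7 d the gene had 1441, 849, 829.1 and 832 with EE2 10 ppm, against 922 to 1439 (median 1035) in the feed controls.

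The 28 d EE2 arrays thus sat at the level of the 7 d controls, and the 28 d controls were lower. Psmb10 was 0.76 lower on the log2 scale in the 28 d than in the 7 d feed controls (adjusted p = 0.0820, and 0.00787 without the gavage control array). The 28 d change minus the 7 d change was 1.09 (adjusted p = 0.0883, and 0.00753 without that array). The 28 d call was thus made against controls of a lower level than those of 7 d.

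Psme1, the alpha chain of the activator that caps the immunoproteasome, had 2966, 2608, 2340 and 3030 with EE2 at 28 d, against 1349 to 1765 (median 1565) in the controls. Every treated array was above every control. The change was 0.80 (adjusted p = 1.41e-05), and the 28 d change minus the 7 d change was 0.65 (adjusted p = 0.0708, and 0.0143 without the gavage control array). Its partner Psme2 had a change of -0.15 (adjusted p = 0.498).

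Psmb9 and Psmb8, which both lie on chromosome 17, from 34182030 to 34187330 and from 34198195 to 34201454, did not pass at 28 d. Psmb9 had 289, 399, 297 and 393 with EE2, against 229 to 450 (median 312) in the controls. Psmb8 had 171, 159, 198 and 195, against 145.98 to 173 (median 163). The groups overlapped for both genes, with changes of 0.11 and 0.16. Of the 3 immunoproteasome subunits, 1 passed.

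Psmd8 had 1854, 2101, 1802 and 2463 with EE2 at 28 d, against 1195 to 1751 (median 1389.8) in the controls, without overlap (0.53, adjusted p = 5.82e-04). Psmb4 had 6783, 7488, 6783 and 8361, against 4391 to 6446 (median 5594), also without overlap (0.43, adjusted p = 0.0369). Psma4 had 4761, 4383, 4391 and 3627, against 3018 to 4083 (median 3400), with replicate 4 inside the control range (0.31, adjusted p = 0.0263). Psmc4 had a change of 0.30 that missed the threshold (adjusted p = 0.0540) and passed with chip as a block (0.35, adjusted p = 0.0380). That block ended the calls of Psma4 (0.28, adjusted p = 0.0561), Psmb4 (0.41, 0.0635) and Psmc5 (0.27, 0.143) and left 6 risen members.

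The number of members called at 28 d was 4 without EE2 28 d replicate 2, 5 without 28 d feed control replicate 1, and 8 with all arrays. In the sample names 3 of the 6 feed controls of 28 d share a number, as do 2 of the 4 EE2 arrays of 28 d, and what the number stands for is not given. With it as a random block (correlation 0.378) 5 members passed. Without the gavage control array 10 passed, Psma5 being added as risen (0.38, adjusted p = 0.0381) and Psmf1 as fallen (-0.21, 0.0467). The 28 d change minus the 7 d change passed for 0 members by limma, against 2.55% of all tested entries, with 10 members at an unadjusted p under 0.05. Without EE2 10 ppm 7 d replicate 1 it passed for 5, without replicate 2 for 2 and without replicate 4 for 1.

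Macrophage and MHC class II markers were higher in the same 28 d arrays. Summed macrophage markers were 15756 to 18004 with EE2, against 3532 to 5776 in the 28 d controls, with 9 of 10 tested markers risen. Summed MHC class II genes were 3272 to 6840, against 1831 to 3442, with 6 of 7 risen. Of 14 interferon-stimulated genes 3 rose, Irf7 (0.98), Usp18 (0.62) and Oasl2 (0.55). Of 8 class I antigen processing genes 0 rose and 2 fell, the peptide transporter gene Tap2 (-0.58) and the class I gene H2-K1 (-0.50). Of all tested entries 14.8% rose and 13.8% fell there. The part of these markers in the change of Psmb10 and Psme1 was not tested.

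After 7 d of PRED at 25 ppm, Psmb10 stood at 0.51-fold of the feed controls, and both chains of its activator, Psme1 and Psme2, fell. Interferon gamma is known to induce all 3 genes. These 3 were the members called, with 0 risen, against 6.01% of all tested entries called, 2.72% as fallen. Members at 7.5% fallen were above that background. A fit of PRED 25 ppm and its controls alone called 9 members, all fallen. The shares above are not of that fit, so this count has no background beside it. The arrays of 8 members lay below every control, against 5.48% of all tested entries.

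Psmb10 had 462, 578, 473 and 749.6 with PRED 25 ppm, against 922 to 1439 (median 1035) in the feed controls. All treated arrays were below all controls. The change was -0.97 (SE 0.26, adjusted p = 0.0119).

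Psme1 had 1385, 1111, 1122 and 1137 with PRED 25 ppm, against 1699 to 2232 (median 1948) in the controls. Replicate 1 was the highest treated array and was still below the lowest control. The change was -0.71 (adjusted p = 7.15e-04). Psme2 had a change of -0.48 (adjusted p = 0.0357), also without overlap.

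Psmb9 had 246, 251, 204 and 263 with PRED 25 ppm, against 330 to 501 (median 393), and Psmb8 had 137, 137, 129.7 and 151.8, against 150 to 216 (median 168). The groups did not overlap for Psmb9 and overlapped for Psmb8. Their changes of -0.71 and -0.28 did not pass with all arrays (adjusted p = 0.123 and 0.280) and passed without the gavage control array (0.00713 and 0.0276). The others below every control were Psmb2, Psmf1, Psmg2 and Psmg3, with changes from -0.47 to -0.20 that did not pass. The constitutive partners Psmb5, Psmb6 and Psmb7 had changes of -0.39, -0.23 and -0.11 (adjusted p = 0.280, 0.619 and 0.694).

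In the 2 chips that held PRED 25 ppm and a feed control, Psmb10 differed by -1.11 and -0.66. In the sample names 2 of these PRED 25 ppm arrays share a number, as do 2 of their feed controls. What the number stands for is not given, so these arrays may not be separate samples. Without PRED 25 ppm replicate 3, the called members were 1 in place of 3, and Psmb10 had an adjusted p of 0.0600. Without the gavage control array 5 members passed.

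At 1.25, 2.5 and 5 ppm of PRED, 0 members passed by limma, with 0, 0 and 5 at an unadjusted p under 0.05, against 0.0264%, 0% and 0.599% of all entries called. The dose trend passed for 4 members, all falling, against 7.31% of all entries. These were Psmb10 (-0.21 per dose step, adjusted p = 0.0183), Psme1 (-0.16, 5.48e-04), Psme2 (-0.12, 0.0171) and Psmg3 (-0.11, 0.0478). The trend passed for 2 members without PRED 25 ppm replicate 2 or replicate 3, for 7 when fitted on these groups alone, and for 2 with the number in the sample name as a block. Without the gavage control array it passed for 6, with Psmb9 (-0.14 per step, adjusted p = 0.0204) and Psmb8 (-0.06, 0.0241) added as falling.

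After 28 d at 25 ppm the falls of Psmb10, Psme1 and Psme2 were not called. Psmb10 had 673, 542, 571 and 547 with PRED at 28 d, against 477 to 1028 (median 624) in the 28 d controls. The groups overlapped, and the change was -0.14 (adjusted p = 0.800). These treated arrays lay within the range of the PRED 25 ppm arrays of 7 d (462 to 749.6). Of the PRED arrays of 28 d, 2 share a number in the sample names. The feed controls of 28 d were lower than those of 7 d (922 to 1439), as given above. The only member called, against 9.89% of all entries, was Psmd5, which was undetected on every array of both groups, so no fold is given. The 28 d change minus the 7 d change passed for 0 members by limma, against 1.42% of all entries, with 10 at an unadjusted p under 0.05. It was 0.83 for Psmb10 (adjusted p = 0.197), so a difference between durations was not shown. Without 28 d feed control replicate 2 or 4, or PRED 25 ppm 7 d replicate 1, that count was 3, and without 7 d feed control replicate 4 it was 1.

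Some other interferon and antigen processing genes passed at 25 ppm and 7 d, where 2.72% of all tested entries fell. Of 14 interferon-stimulated genes 2 fell, Cxcl9 (-1.45) and the antiviral membrane protein gene Bst2 (-1.25), with a list median of -0.59. Of 8 class I antigen processing genes 2 fell, H2-K1 (-0.44) and the class I light chain gene B2m (-0.27). Summed macrophage markers were 2905 to 4144 with PRED, against 4566 to 6602 in the controls, and MHC class II genes 1179 to 1558, against 1932 to 2755, with 0 members of either list past the threshold. Their part in the fall of Psmb10 and Psme1 was not tested.

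EE2 and PRED shared the feed doses of 2.5 and 5 ppm, which allowed a direct comparison at 7 d without a control. With the spread shared over 19 groups, subunits of the core and cap were higher with EE2, and at 5 ppm these calls depended on that. At 2.5 ppm 10 members were higher with EE2 and 0 lower, against 9.85% of all entries called, 5.78% as higher. At 5 ppm 15 were higher and 0 lower, against 18% called, 9.61% as higher. Median differences over members were 0.24 and 0.25. When each fit held the 2 compared groups alone, 6 members passed at 2.5 ppm and 0 at 5 ppm by limma, where the fit over all groups had 17 at an unadjusted p under 0.05.

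The ATPases Psmc1 to Psmc5 were all higher with EE2 at both doses, by 0.49, 0.54, 0.57, 0.63 and 0.54 at 2.5 ppm and by 0.35, 0.46, 0.47, 0.42 and 0.50 at 5 ppm. Psma7 and Psmb4 were higher by 0.70 and 0.62 at 2.5 ppm and by 0.68 and 0.67 at 5 ppm. Psma5, Psmd12 and Psmd13 also passed at both doses. At 5 ppm, Psmd8 (0.51), Psma4 (0.50), Psma2 (0.49) and Psmb7 (0.38) were added, and Psme1 (0.53). With chip as a block, Psma5 passed at neither dose (adjusted p = 0.0693 at 2.5 ppm and 0.147 at 5 ppm). Psmc3 (0.0696), Psmc4 (0.146) and Psme1 (0.0588) did not pass at 5 ppm with that block, while Psmd9 was added at 2.5 ppm (0.0194).

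The immunoproteasome subunits did not pass at either dose. The difference for Psmb9 was -0.40 (95% interval from -1.005 to 0.21) at 2.5 ppm and -0.38 (-0.99 to 0.23) at 5 ppm, and for Psmb10 0.22 (-0.34 to 0.79) and 0.07 (-0.50 to 0.63). These intervals hold differences of either sign. In the 1 chip that held both groups at each dose, the median difference over members was 0.41 at 2.5 ppm and 0.72 at 5 ppm. Without EE2 5 ppm replicate 1, 1 member passed at 5 ppm in place of 15.

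**Figure D4:**
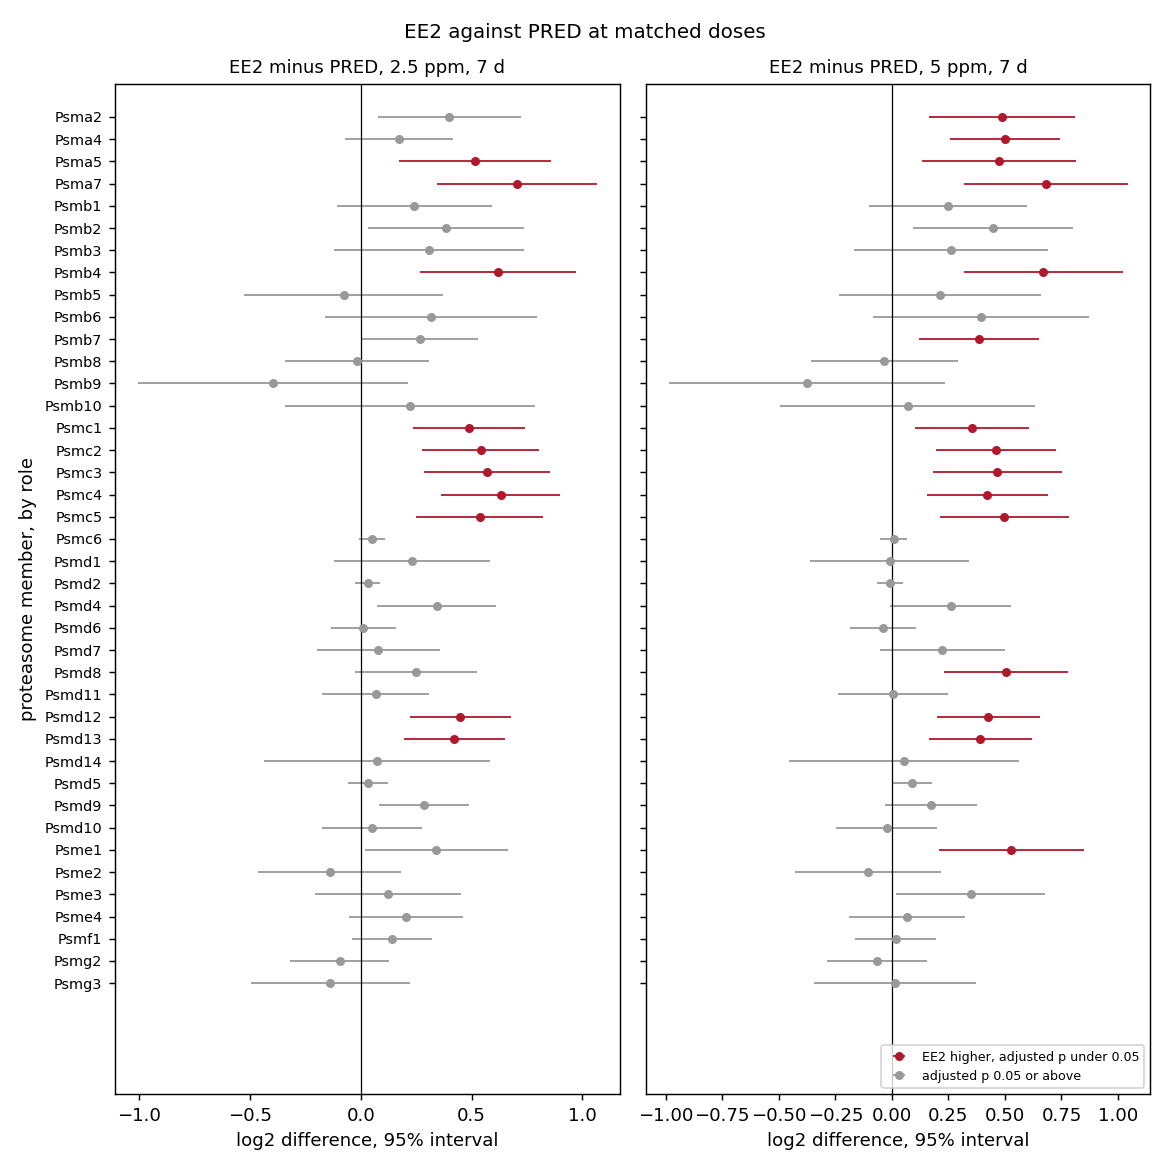
Log2 difference, EE2 minus PRED, with its 95% interval for each of the 40 members at 2.5 ppm (left) and 5 ppm (right) after 7 d, red where the adjusted p was under 0.05 and grey otherwise. Red points number 10 and 15, all on the EE2 side, and the intervals of Psmb8, Psmb9 and Psmb10 span 0.

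A4 gave no member past the threshold. By limma 0 of 40 passed in each of the 4 dose groups at 7 d and at the top dose at 28 d, where 0% of all tested entries passed too. Members at an unadjusted p under 0.05 numbered 5, 2, 2, 3 and 0. The trend and the difference between durations also passed for 0 members, with 2 and 1 at an unadjusted p under 0.05, against 0% and 0.00881% of all entries.

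The sign of the immunoproteasome changes with A4 turned with the gavage control array in every 7 d dose group, except for Psmb10 at 2 mg/kg/day, which was above 0 with and without it. Psmb9 had 339, 429, 355 and 404 with A4 50 mg/kg/day at 7 d, against 264, 275, 255 and 2296 in the gavage controls. Psmb10 had 937, 1049.7, 927 and 849, against 648, 592, 673 and 4074. The treated arrays lay above 3 controls and below the fourth for both genes.

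From 2 to 50 mg/kg/day, Psmb9 had log2 changes of -0.30, -0.52, -0.54 and -0.26 with all arrays and 0.46, 0.24, 0.22 and 0.50 without that array. Psmb10 had 0.04, -0.10, -0.40 and -0.11 with all arrays and 0.70, 0.56, 0.26 and 0.55 without it. Psmb8 had -0.30, -0.38, -0.36 and -0.37, and then 0.14, 0.05, 0.07 and 0.07. None of these passed in either case.

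**Figure D5:**
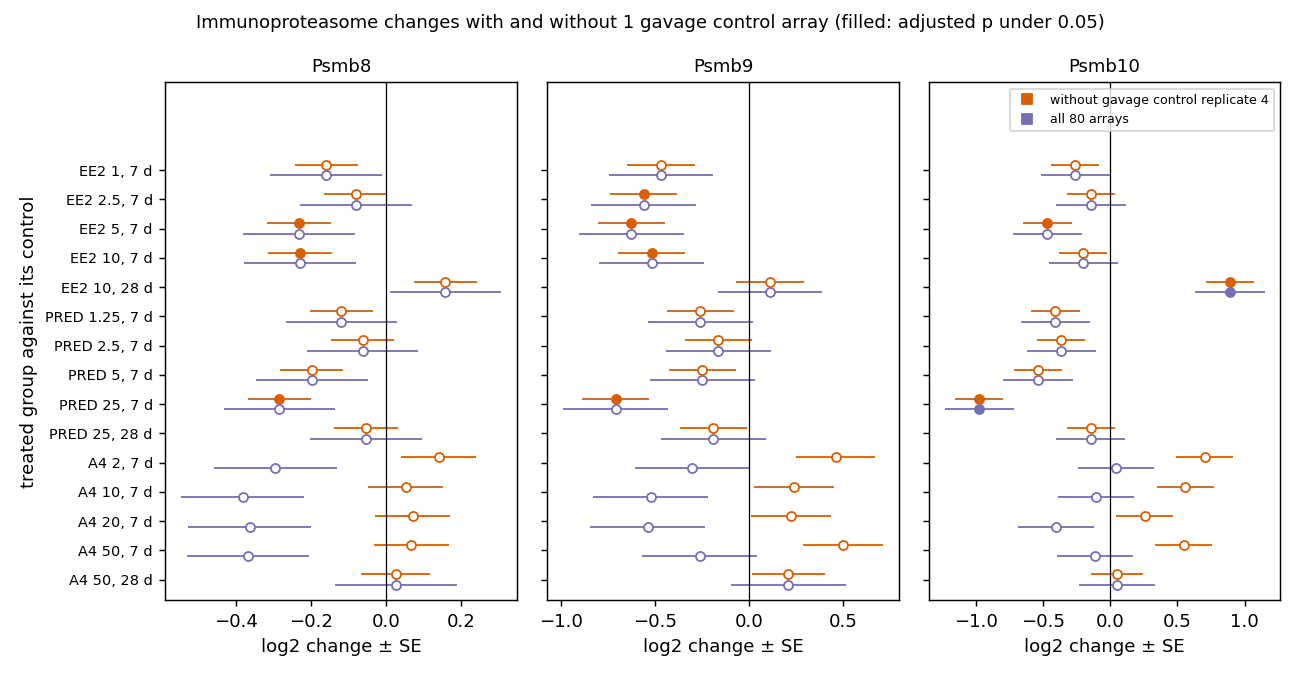
Log2 change with its standard error of Psmb8, Psmb9 and Psmb10 in the 15 treated groups (rows, with feed doses in ppm and A4 doses in mg/kg/day) without replicate 4 of the 7 d gavage control (orange) and with all 80 arrays (purple), filled where the adjusted p was under 0.05. The A4 rows at 7 d lie left of 0 with all arrays for Psmb8 and Psmb9 and right of 0 without it, while the EE2 and PRED rows keep their place and gain narrower bars.

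Between the controls, the 28 d feed group differed from the 7 d feed group in 1 member by limma, Psmd5, undetected on all arrays of both, against 1.02% of all entries, and 10 members had an unadjusted p under 0.05. Psmb10 was the member with the largest difference, -0.76 as given above, and 14 of 40 members lay above 0. Gavage and feed controls differed in 0 members at 7 d and at 28 d by limma, where 0% of all tested entries passed too. At an unadjusted p under 0.05 there were 6 and 0 members. At 7 d the gavage minus feed difference of Psmb10 was -0.12 with all arrays and -0.78 without the gavage control array (adjusted p = 0.167).

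Over the 19 groups, group means varied most for Psme1 (a range of 1.19 on the log2 scale) and Psmb10 (1.10), each lowest with PRED 25 ppm at 7 d and highest with EE2 at 28 d. Psmd8 (0.99) and Psmc4 (0.93) followed, both lowest in the 28 d gavage control and highest with EE2 10 ppm at 7 d. Within groups, the spread between arrays was widest for Psmb9 (SD 0.44) and Psmb10 (SD 0.40), of which the gavage control array is a part. Psmd2 had the narrowest range of group means, 0.05, at levels near background.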

How the data were processed

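Liver RNA of 80 samples was hybridised to Illumina bead arrays after Trizol and RNeasy extraction and biotin labelling, per the labels' protocols. GenomeStudio is named, without a version, in the submitters' processing notes. For every array and gene symbol the authors deposited a normalized, linear intensity and a detection p-value. These are called normalized by a method not given in the sources used here. Array medians of 105.7 to 106.4 show that no background was subtracted, and signal over background limits what weak genes can show. A second deposited table gave the same intensities for 18111 symbols and served to restore names damaged by a spreadsheet. All value columns were mapped to a sample by name, and 0 were left unmapped.

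Groups came from the titles. Entries detected on at least 4 arrays were tested, 11352 in all, as log2(intensity + 16), with limma 3.58.1 in R 4.3.3. One model over the 19 groups, with 61 residual degrees of freedom, gave 26 comparisons, two-sided, with a threshold of 0.05 after Benjamini-Hochberg adjustment. On data simulated for EE2 10 ppm at 7 d over 11352 genes, the steps recovered a share of 0.75 of genes changed by log2 0.5 and 0.95 of those changed by log2 1. They also made 10 false calls.

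Members and gene lists were chosen with earlier results of these data known. Of 146 listed genes, 130 were in the table. Values per array are given for Psmb8, Psmb9 and Psmb10, for their counterparts Psmb5, Psmb6 and Psmb7, and for the called member of each role with the largest change at a top dose, and for Psmb4 and Psme1. Other members are named where called. Promoters and coordinates are RefSeq's for GRCm38.p6. Alternatives were another added constant, scaling to the 75th percentile, no detection filter, only the groups compared, chip as a block, the number in the sample name as a random block, and each array left out. Shares of all tested entries called are those of the model over the 19 groups with all arrays, and none is given for an alternative.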

Additional observations from a re-analysis of the deposited data

Results flagged for a closer look

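In a group of 4 to 10 arrays, an array was singled out where its distance from its nearest neighbour was a large part of the group's range. Of 159 sets of values checked, 13 were singled out, or 8.18%, where chance gives about 1 in 20.

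Replicate 4 of the 7 d gavage control accounted for 3 of them, with intensities of 521 for Psmb8, 2296 for Psmb9 and 4074 for Psmb10. The other 3 arrays reached at most 151.8, 275 and 673.

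EE2 10 ppm at 7 d had 3. Replicate 1 was high for Psmb10 at 1441 (829.1 to 849 on the others) and for Psmb8 at 163 (137 to 141), and replicate 2 was high for Psmb5 at 879 (340 to 412). EE2 10 ppm at 28 d had replicate 4 high for Psmb10, at 1572 (1076 to 1124). Replicate 1 of PRED 25 ppm at 7 d was high for Psme1 at 1385 (1111 to 1137), nearer to the controls than the others.

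In A4 50 mg/kg/day at 28 d, replicate 1 was low for Psma4 at 2919 (3770 to 3922) and for Psmb6 at 1584 (2198 to 2319), and replicate 4 was high for Psmb10 at 979.9 (689.8 to 732). In A4 10 mg/kg/day at 7 d, replicate 4 had the lowest mean log2 intensity over all members, 9.91 (10.14 to 10.19). Among the 7 d feed controls, replicate 2 was low for Psmb6 at 1359.5 (2517 to 2773).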

How the results depend on the processing

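When a fit held only the groups compared, members past the threshold numbered 0 for EE2 1 ppm, 4 for EE2 5 ppm, 9 for EE2 10 ppm at 7 d, 8 for the EE2 trend, 1 for the EE2 difference between durations, 9 and 4 for PRED 25 ppm at 7 d and 28 d, 7 for the PRED trend, 3 for the PRED difference between durations, 6 and 0 for EE2 against PRED at 2.5 and 5 ppm, and 0 between the feed controls. Chip as a block gave 10 for EE2 5 ppm, 0 for PRED at 28 d and 0 between the feed controls. The number in the sample name as a random block (correlation 0.378) gave 10 for EE2 5 ppm, 5 for EE2 at 28 d, 0 for PRED at 28 d, 2 for the PRED trend and 0 between the feed controls. Without the detection filter EE2 at 28 d had 5 and the feed controls 0, which scaling to the 75th percentile also gave. Without the gavage control array, an alternative chosen after seeing the data, the EE2 difference between durations had 2, PRED 25 ppm at 7 d had 5 and the feed controls had 2. No direction reversed for a called value.

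With each array left out in turn, members past the threshold ran from 1 to 2, 5 to 14, 6 to 18 and 8 to 17 for EE2 1, 2.5, 5 and 10 ppm at 7 d, and from 4 to 10 at 28 d. They ran from 11 to 18 for the EE2 trend, 0 to 5 for its difference between durations, 1 to 3 and 0 to 2 for PRED 25 ppm at 7 d and 28 d, 2 to 4 for the PRED trend and 0 to 3 for its difference between durations. EE2 against PRED gave 7 to 11 at 2.5 ppm and 1 to 15 at 5 ppm, the feed controls 0 to 3, and the other comparisons 0. The cause of these moves was not tested, beyond fewer arrays in each fit.

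In 17 alternatives, Psmc4 and Psmd8 at EE2 10 ppm and 7 d, Psme1, Psmb10 and Psmd8 with EE2 at 28 d, and Psme1 with PRED 25 ppm at 7 d stayed past the threshold. Psma4 and Psmb4 with EE2 at 28 d were each lost in 7, Psmf1 in 4 and Psmg3 in 1 (adjusted p = 0.0549 with only the groups compared). No paired analysis was possible because the replicate numbers were given in accession order and pair no arrays across groups. The largest shift of the all-entry median under another scaling was 0.0135.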
